A study of Mus musculus with 6 samples.

Results

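Small nucleolar RNA (snoRNA) host genes are transcription units whose introns carry snoRNAs. The genes described here are Gas5 and the transcripts named Snhg1, Snhg3, Snhg4, Snhg5, Snhg6, Snhg8 and Snhg12, taken from the count table by symbol. Of these 8 genes, 7 had a row among the 53733 named rows. Snhg4 is not analysed here. The rule takes rows by name and uses no threshold on a measured value; earlier results of these data were known when the genes were listed.

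After splicing, a snoRNA is trimmed from the intron and packed with proteins into a snoRNP. Box C/D snoRNPs guide methylation of ribose and box H/ACA snoRNPs guide the change of uridine to pseudouridine, mainly on ribosomal RNA. The spliced RNA left over from a host gene of this kind holds little coding sequence. It often starts with a run of pyrimidines like that of ribosomal protein mRNAs, called a 5' terminal oligopyrimidine (TOP) tract, and is often removed by nonsense-mediated decay. The name Gas5 stands for growth arrest specific, from the accumulation of its spliced RNA in cells that stop growing.

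RNA came from a mouse acute myeloid leukaemia line, made from foetal liver cells with a pair of retroviral vectors. MSCV-Luc2-IRES-MLL-AF9 expresses luciferase and the MLL-AF9 fusion oncogene constantly, and TRE-tight-DsRED-IRES-FLT3-ITD expresses a red fluorescent protein and the activated receptor FLT3-ITD while doxycycline is given. Each NSG mouse, an immunodeficient strain, was injected with these cells by tail vein and given doxycycline in food and water for 96 h. Doxycycline was then continued for 48 h in the 3 control mice (ON) and withdrawn for 48 h in the 3 others (OFF), and viable leukaemic cells were sorted from the bone marrow. MLL-AF9 and the earlier doxycycline were thus shared by both groups, whose difference is doxycycline and the transgene it drives. All 6 mice carried the same line, so the spread between replicates is a spread between mice and not between lines made separately. The sources used here do not give the sort markers or the ages of the mice, and expression of the FLT3-ITD transgene was not analysed here. The row of the endogenous gene, Flt3, differed by a log2 fold change of 0.27 with an adjusted p of 0.387.

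Libraries were made with a kit that reads the 3' ends of polyadenylated RNA, and held 8347588 to 9329917 counts each. Values below are CPM, counts divided by the library's size after TMM scaling, a correction for RNA composition. A gene's own level is compared between libraries. Where counts of different genes are set side by side or summed, they describe reads and give no ranking of transcript levels. At these depths 1 count is at most 0.12 CPM. Every pair of replicates in a group differed beyond sampling noise. OFF replicate 3 stood away from the other OFF libraries on the second principal component (13.6% of the variance). Rows of the ribosomal RNA locus took 11.3% to 16.2% of counts in ON and 10.1% to 18.0% in OFF.

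The starts of these genes are shown first, because the TOP tract, a known feature of such genes, is a matter of the letters there. RefSeq gave a promoter for 6 of the 7 genes (build GRCm38.p6), with 7 starts in all because Gas5 has 2. Each line below holds the 40 bases before the start and the 20 bases from it. Capitals mark a TATA within the 40 bases before the start and a match to a search for a TOP tract. The search took a C with at least 4 pyrimidines after it, beginning within 10 bases of the start on the gene's own strand.
Gas5, first start, chr1:161034561-161034620, plus strand: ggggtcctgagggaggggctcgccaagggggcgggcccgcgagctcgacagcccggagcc
Gas5, second start, chr1:161035126-161035185, plus strand: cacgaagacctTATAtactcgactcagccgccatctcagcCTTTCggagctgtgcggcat
Snhg1, chr19:8723447-8723506, plus strand: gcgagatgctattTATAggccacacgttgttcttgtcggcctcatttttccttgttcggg
Snhg5, chr9:88522878-88522937, minus strand: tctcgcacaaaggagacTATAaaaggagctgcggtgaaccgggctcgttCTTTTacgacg
Snhg12, chr4:132308638-132308697, plus strand: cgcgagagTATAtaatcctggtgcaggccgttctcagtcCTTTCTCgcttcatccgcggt
Snhg8, chr3:123508317-123508376, minus strand: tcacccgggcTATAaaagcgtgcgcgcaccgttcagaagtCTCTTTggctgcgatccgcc
Snhg3, chr4:132353667-132353726, minus strand: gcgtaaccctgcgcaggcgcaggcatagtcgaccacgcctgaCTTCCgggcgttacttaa

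The TOP search matched 5 of these 7 starts, belonging to 5 of the 6 genes. The same search matched 37 of 67 starts of ribosomal protein genes (55.2%). It matched 35.7% of the starts of other Snhg and related transcripts and 30.7% of all 32851 starts searched. In Gas5 (second start) and Snhg8 the match began on the first transcribed base, and in Snhg12 on the base before it. It began on base 3 in Snhg3 and on base 10 in Snhg5, so neither run is terminal at the annotated start. Snhg1 and the first Gas5 start had no match. TATA beginning 40 to 20 bases before the start, a search made after these sequences had been read, was present at 5 of 7 starts. It was present at 7.14% of starts of other Snhg and related transcripts, 8.96% for ribosomal protein genes and 5.81% for all starts. Snhg3 and the first Gas5 start lacked it.

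Motifs of transcription factors were searched on both strands over the 250 bases before to 50 bases after each start. CCGGAAG, an ETS motif, was found in Snhg3 alone, on bases 3 to 9, where it overlaps the match of the TOP search. Of all starts, 8.86% held it. None of the 7 starts held CACGTG (E-box, 7.15% of all starts), TGACTCA (AP-1, 5.20%), TTCNNNGAA (STAT, 8.30%), TGATGCAA (ATF response element, 0.895%) or the motifs of NRF1 (0.971%) and ZBTB33 (0.466%). A match or its absence describes these letters in this window only.

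The host genes were mostly lower in OFF than in ON. By edgeR's quasi-likelihood test, with p adjusted over all 13652 rows tested and a threshold of 0.05, 6 of the 7 were lower in OFF, none was higher (also none by DESeq2, or at an unadjusted p under 0.05) and 1, Snhg6, did not pass. Over all rows tested, 34.8% were called, 17.5% lower in OFF and 17.3% higher. The median log2 fold change (OFF minus ON) of the 7 genes was -0.97, against 0.0043 for all rows. For 5 of the 7 genes every OFF library lay below every ON library, as it did for 24.5% of all rows, and 3 were called and at least 2-fold lower (Snhg1, Snhg3 and Snhg12), as 5.51% of all rows were. In these bulk samples, fewer cells of a type and less RNA per cell cannot be told apart.

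**Figure D1:**
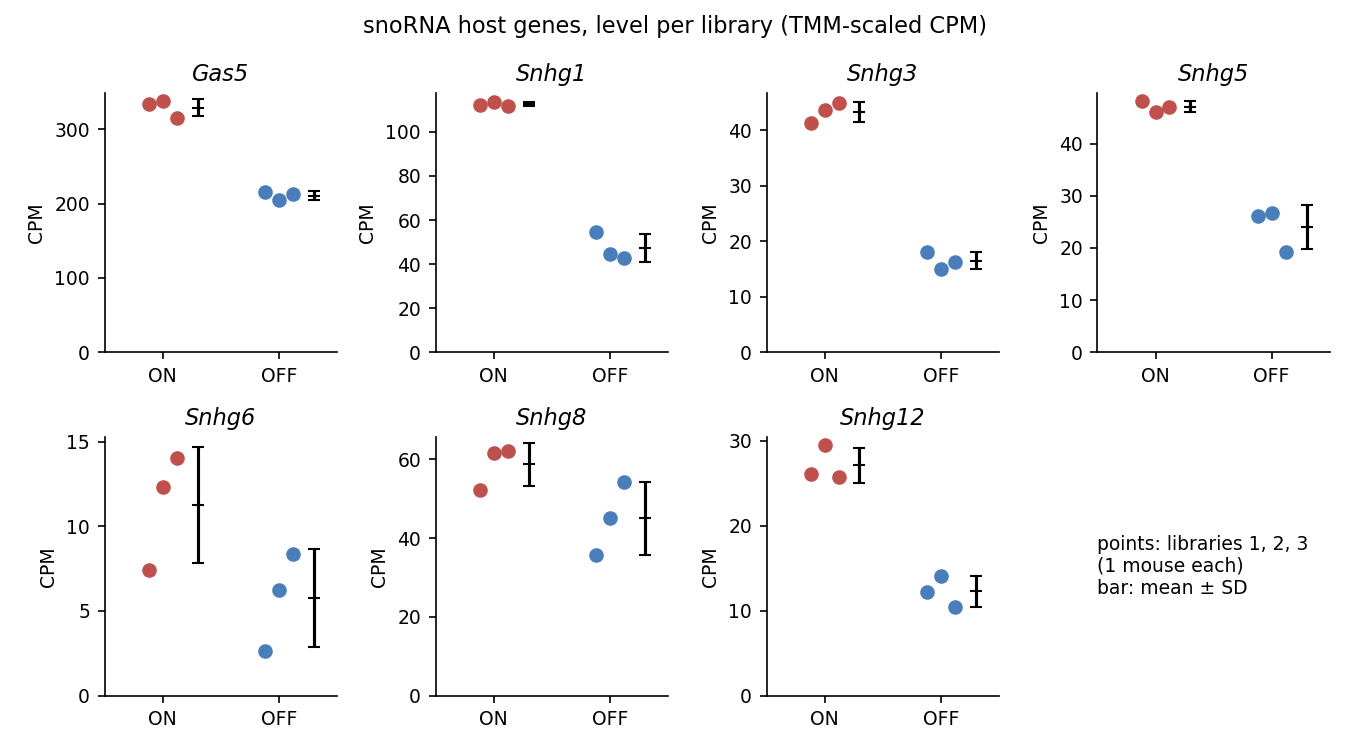
Level of each host gene in each of the 6 libraries (vertical axes: TMM-scaled CPM from 0, with a scale of its own for each gene); points are mice and bars are mean ± SD of 3. ON and OFF libraries are separate for Gas5, Snhg1, Snhg3, Snhg5 and Snhg12 and overlap for Snhg6 and Snhg8.

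Gas5, whose introns carry box C/D snoRNAs, lies on chromosome 1 (161034422 to 161038539, plus strand, mm10). Its level was 334, 338 and 316 CPM in ON replicates 1 to 3 and 215, 204 and 213 CPM in OFF replicates 1 to 3. The 3 OFF libraries lay close together and well under the 3 ON libraries. From 329 ± 12.1 (SD, n = 3) it went to 211 ± 5.73 CPM, 1.56-fold lower, with a log2 fold change of -0.64 (SE 0.10, 95% interval -0.85 to -0.44) and an adjusted p of 1.57e-04. Gas5 had 1834 to 2969 counts a library and the second smallest change of the 7 genes.

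Snhg1, another box C/D host, lies on chromosome 19 (8723475 to 8726443, plus strand). It had 112, 114 and 112 CPM in the ON libraries, against 54.5, 44.4 and 42.6 CPM in those of OFF. The ON libraries were nearly equal, and OFF replicate 1 was the highest of the OFF libraries. Snhg1 fell from 113 ± 1.03 to 47.2 ± 6.43 CPM (SD, n = 3), 2.39-fold, with a log2 fold change of -1.25 (SE 0.12, interval -1.50 to -1.01) and an adjusted p of 3.21e-06.

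Snhg5, the host of Snord50a and Snord50b on chromosome 9 (88521050 to 88522929, minus strand), had 48.2, 46.0 and 47.1 CPM in ON. In OFF it had 26.1, 26.7 and 19.3 CPM, with OFF replicate 3 the lowest and no overlap between groups. The fall from 47.1 ± 1.09 to 24.0 ± 4.15 CPM (SD, n = 3) was 1.96-fold, a log2 fold change of -0.97 (SE 0.13, interval -1.25 to -0.69) with an adjusted p of 6.90e-05.

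Snhg6, the host of Snord87 on chromosome 1 (9941959 to 9944118, minus strand), was the lowest in counts, with 65, 108 and 113 in ON and 24, 56 and 76 in OFF. In CPM these were 7.42, 12.3 and 14.0 in ON and 2.67, 6.24 and 8.36 in OFF, so that the ON library with the least lay below the OFF library with the most. The means were 11.2 ± 3.42 and 5.75 ± 2.88 CPM (SD, n = 3), and the log2 fold change of -0.96 (SE 0.35, interval -1.75 to -0.17) had an adjusted p of 0.0594. It passed in 5 of the 15 alternatives that tested it, among them DESeq2 (adjusted p 0.0237), without ON replicate 1 (0.0318) and without OFF replicate 3 (0.00865). It did not pass without ON replicate 2 (0.155), ON replicate 3 (0.203), OFF replicate 1 (0.0517) or OFF replicate 2 (0.114). The log2 fold change ran from -1.33 without OFF replicate 3 to -0.62 without OFF replicate 1. Its 3' end shares 127 exonic bases with Mcmdc2, a gene of meiotic recombination on the opposite strand. Mcmdc2 had 80.0%, 79.6% and 79.7% of the Snhg6 count in ON and 100%, 98.2% and 86.8% in OFF, so reads of these 2 genes cannot be told apart here. The Mcmdc2 row itself had a log2 fold change of -0.74 and an adjusted p of 0.103.

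Snhg12 carries both kinds of snoRNA (Snora16a, Snora44 and Snora61 of the H/ACA class and Snord99 of the C/D class) on chromosome 4 (132308623 to 132311024, plus strand). Its levels were 26.0, 29.5 and 25.8 CPM in ON and 12.2, 14.1 and 10.5 CPM in OFF. The highest OFF library was well under the lowest ON library. The means of 27.1 ± 2.07 and 12.3 ± 1.85 CPM (SD, n = 3) differed 2.21-fold, a log2 fold change of -1.14 (SE 0.14, interval -1.45 to -0.84) with an adjusted p of 3.46e-05.

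Snhg3 hosts Snora73a and Snora73b, H/ACA-class RNAs, on the same chromosome (132348014 to 132353686, minus strand). It had the largest change of the 7 genes, from 41.3, 43.6 and 44.9 CPM in ON to 18.1, 15.04 and 16.3 CPM in OFF. No OFF library came near an ON library. The means were 43.3 ± 1.80 and 16.5 ± 1.54 CPM (SD, n = 3), 2.63-fold apart, with a log2 fold change of -1.39 (SE 0.12, interval -1.65 to -1.13) and an adjusted p of 1.99e-06. Gm17300, a predicted transcript on the opposite strand that shares 705 exonic bases with Snhg3, had 101.7% to 109.4% of the summed count of Snhg3 and Snora73b in each library. The strand setting of the counting is unknown here, and part of the Snhg3 reads may have been counted in both rows.

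Snhg8, the host of Snora24 on chromosome 3 (123507552 to 123508404, minus strand), changed least. Its level was 52.3, 61.6 and 62.1 CPM in ON and 35.7, 45.2 and 54.1 CPM in OFF, where OFF replicate 3 lay above ON replicate 1. The means of 58.7 ± 5.54 and 45.0 ± 9.24 CPM (SD, n = 3) gave a log2 fold change of -0.38 (SE 0.14, interval -0.69 to -0.08) and an adjusted p of 0.0484, just inside the threshold. The call was lost under 12 of 16 alternative settings, among them leaving out any library but OFF replicate 3 (adjusted p 0.0618 without ON replicate 1, 0.174 without ON replicate 2, 0.162 without ON replicate 3, 0.135 without OFF replicate 1 and 0.128 without OFF replicate 2) and DESeq2 (0.0664). The log2 fold change was -0.24 without OFF replicate 1, and -0.53 without OFF replicate 3, where the adjusted p was 0.00102.

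**Figure D2:**
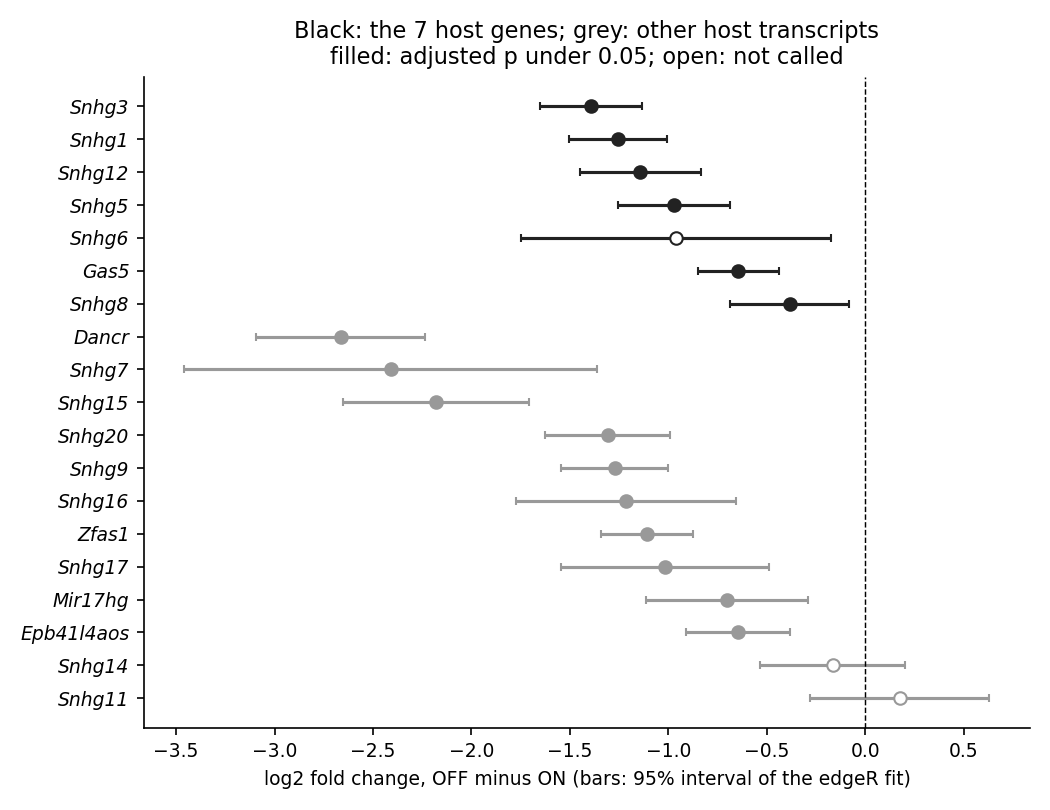
Log2 fold change of each host gene (horizontal axis, OFF minus ON) with the 95% interval of the edgeR fit, in black for the 7 genes and in grey for other host transcripts; filled points have an adjusted p under 0.05. The 7 genes run from -1.39 (Snhg3) to -0.38 (Snhg8), and Snhg6, an open point, has the widest interval of the 7.

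In order of change, Snhg3, Snhg1, Snhg12 and Snhg5 came first, with intervals that overlap from each to the next. The interval of Snhg6 spans those of all 6 other genes in part, and those of Gas5 and Snhg8 overlap each other. The upper bound of Snhg3 (-1.13), of Snhg1 (-1.01) and the lower bound of Gas5 (-0.85) leave a gap between those hosts and Gas5. Box C/D hosts (Gas5, Snhg1, Snhg5, Snhg6) and H/ACA hosts (Snhg3, Snhg8) both held a larger and a smaller change.

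**Figure D3:**
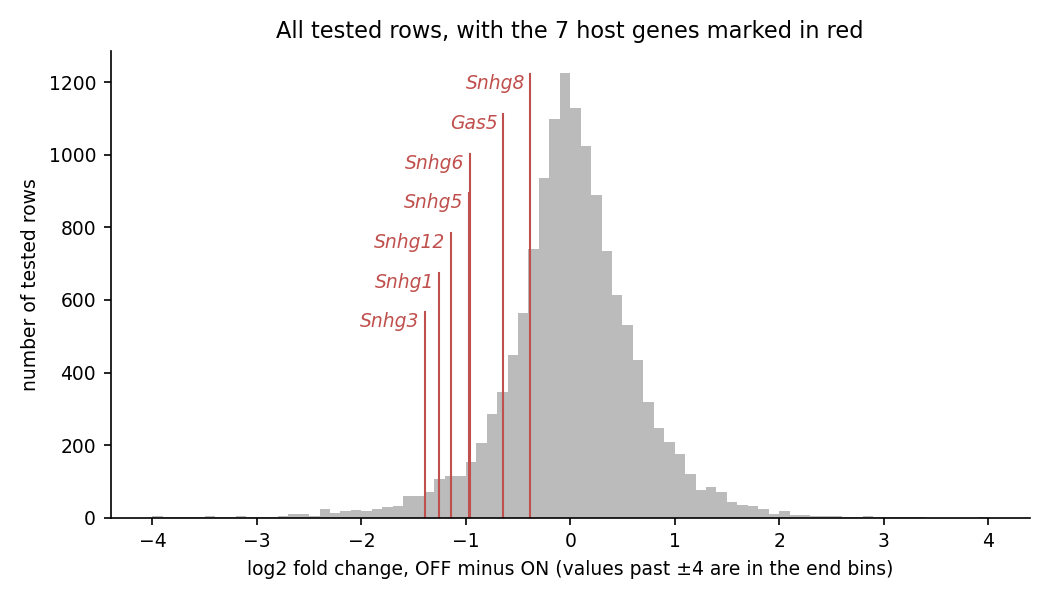
Histogram of the log2 fold changes (horizontal axis, OFF minus ON) of the 13652 rows tested (vertical axis, number of rows), with a red line at each host gene. All 7 lines stand left of 0, where the rows have their median of 0.0043, and line heights carry no value.

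Because Gas5 gave most of the counts, the sum of the genes was taken with and without it. All 7 together had 622, 645 and 621 CPM in ON and 364, 356 and 364 CPM in OFF, a 1.74-fold difference of the means (629 ± 13.5 and 361 ± 4.67, SD, n = 3). The 6 genes without Gas5 had 287, 307 and 306 CPM in ON and 149, 152 and 151 CPM in OFF, a 1.99-fold difference. The sums varied far less between OFF mice than single genes such as Snhg8 did.

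The share of each gene in the summed count of the 7 is given as a description, with no test. Gas5 took 53.8%, 52.4% and 50.8% of the counts of the 7 genes in ON and 59.0%, 57.4% and 58.5% in OFF. Snhg1 took 18.0%, 17.6% and 18.0% in ON and 14.97%, 12.5% and 11.7% in OFF. Snhg3 went from 6.65%, 6.76% and 7.23% to 4.97%, 4.22% and 4.47%, and Snhg12 from 4.19%, 4.57% and 4.15% to 3.35%, 3.97% and 2.87%. For these 4 genes the groups did not overlap, while those of Snhg5, Snhg6 and Snhg8 did.

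Host rows and the snoRNA rows inside them can share reads, since the annotation used here includes unspliced transcripts, whose exons span introns. For Snhg1, Snhg8 and Snhg12 the merged exons cover the whole gene. Within the spans of these genes lay 27 snoRNA rows, of which 25 lay in exon models and 14 had enough counts to be tested. Of these 14, 10 were lower in OFF and none was higher, against 17.5% lower among all rows tested. Their median log2 fold change was -1.71. The filter keeps a row with enough counts in a single group, as Snora44 had in ON. Rows kept through ON alone lean towards lower in OFF, so this count and median are no evidence about the snoRNAs. Since the kit favours polyadenylated RNA and most of these rows lie in host exons, no level of mature snoRNA is read from them. Snora73b in Snhg3, which lies between its exons, had 35.5, 34.6 and 22.5 CPM in ON and 10.2, 3.12 and 2.97 CPM in OFF with a log2 fold change of -2.51 and an adjusted p of 0.00391. Snord87 in Snhg6, the other row outside exon models, had 120, 79 and 91 counts in ON and 99, 78 and 44 in OFF. Its groups overlapped, and its log2 fold change of -0.47, with an adjusted p of 0.174, was not called. Snora44 in Snhg12, the row with the largest fall of the 14 (-4.06), had 21, 26 and 22 counts in ON and 2, 1 and 1 in OFF. Matched by name instead, 29 snoRNAs known from the introns of these genes had 15 rows and 7 tested, of which 4 were lower (median -1.33). The same limit of the filter holds for that list.

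The snoRNA rows in exon models came to 5.95%, 5.59% and 5.74% of the Gas5 count in ON and 3.05%, 2.02% and 2.17% in OFF. For Snhg12 they came to 17.1%, 18.5% and 18.3% in ON and 10.9%, 7.09% and 7.37% in OFF. In both genes the share was lower in every OFF library. That of Snhg12 rests on few snoRNA counts, 39, 48 and 38 in ON and 12, 9 and 7 in OFF. The share was largest in Snhg1, at 26.6%, 25.2% and 25.4% in ON and 23.6%, 27.1% and 17.8% in OFF, where the groups overlapped. Snhg3 had 7.46%, 6.53% and 4.14% in ON and 4.91%, 5.19% and 4.73% in OFF. In Snhg5 the share was 10.9%, 7.43% and 8.95% in ON, and in OFF the rows held 12 of 235, 24 of 240 and 12 of 175 counts. Snhg8 had 3.28%, 2.77% and 1.80% and then 4.05%, 0.49% and 1.63%. None of these 3 hosts showed separate groups, and they rest on 2 to 46 snoRNA counts a library. With these snoRNA counts taken off, an alternative chosen after the data were seen, the log2 fold changes were -0.59 for Gas5, -1.20 for Snhg1, -1.38 for Snhg3, -0.94 for Snhg5 and -0.98 for Snhg12. All 5 stayed past the threshold, and Snhg8 did not (-0.37, adjusted p 0.0627).

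**Figure D4:**
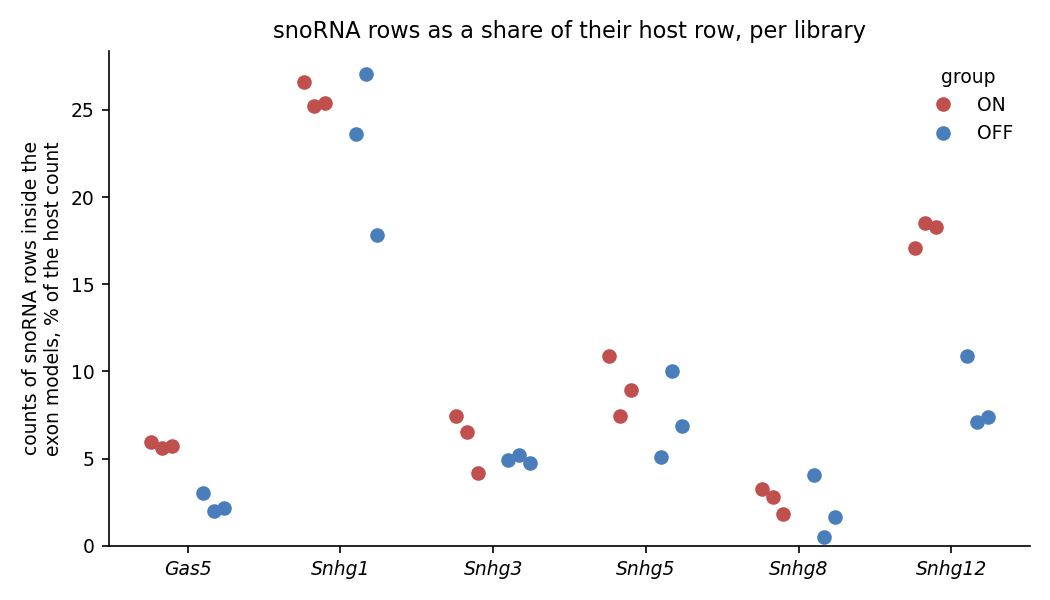
Counts of snoRNA rows inside the exon models of each host as a percentage of the host's count (vertical axis), 1 point per library, ON in red and OFF in blue. OFF points lie below ON points for Gas5 and Snhg12, and the groups overlap for Snhg1, Snhg3, Snhg5 and Snhg8; Snhg6 has no snoRNA in its exon models.

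Of the genes that start beside a host gene, Slc3a2 and Rcc1 were lower in OFF and Zbtb37 was not called. Slc3a2, the heavy chain of amino acid transporters, starts 106 bases from Snhg1 on the opposite strand with no shared exon. It fell from 117, 151 and 112 CPM in ON to 49.5, 41.0 and 47.0 CPM in OFF, a log2 fold change of -1.47 with an SE of 0.13 and an adjusted p of 2.44e-06. Rcc1, the nucleotide exchange factor of the GTPase Ran, starts 81 bases from Snhg3 on the same strand and shares 135 exonic bases with it. Rcc1 fell from 87.1, 105 and 105 CPM to 38.1, 33.6 and 31.6 CPM, a log2 fold change of -1.53 with an adjusted p of 9.80e-07. Zbtb37, a zinc finger gene that starts 427 bases from Gas5 on the opposite strand, was at 5.94, 6.72 and 5.33 CPM in ON and 8.44, 7.13 and 5.72 CPM in OFF. Its log2 fold change of 0.24 had an interval of -0.21 to 0.69 and an adjusted p of 0.403.

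Other non-coding host transcripts gave a like picture. Of 14 listed, 12 were tested, of which 10 passed as lower and none as higher, with a median log2 fold change of -1.16. For this list and the next, the share over all rows tested was 17.5% lower and 17.3% higher. Mir17hg, 1 of the 10 (-0.70, adjusted p 0.0112), holds microRNAs and no annotated snoRNA. Dancr fell from 20.4 to 3.22 CPM (-2.66, adjusted p 7.77e-07), Zfas1 from 81.0 to 37.5 CPM (-1.11, adjusted p 4.87e-06) and Snhg9 from 150.3 to 62.2 CPM (-1.27, adjusted p 5.90e-06). Reads of Snora26 made up 133 of 195 Dancr counts in ON replicate 1 and 8 of 21 in OFF replicate 3. Other called rows of this list also share reads with other genes. The Snora43 row held 94.4% to 100% of the Snhg7 count. In ON replicate 1, Gm26083, a small RNA inside Snhg20, had 270 counts against 337 for Snhg20. St6galnac2, on the opposite strand of Snhg16 with 497 shared exonic bases, had 35 counts against 38 there. The rows of Dancr, Snhg7, Snhg16 and Snhg20 may therefore not measure the spliced host transcript. Snora9, inside Snhg15, had 66 counts against 198 for Snhg15 in ON replicate 1, and 3 against 44 in OFF replicate 3. Part of the Snhg15 change (-2.18) may thus lie in shared reads. The 7 other called rows ran from -2.41 (Snhg7, under 3 CPM in every library) to -0.65 (Epb41l4aos). Of the 14, Snhg10 had too few counts to be tested and Snhg18 was at 0 in all libraries. The 2 not called were Snhg11 (0.17, adjusted p 0.566) and Snhg14 (-0.17, adjusted p 0.492). Protein-coding snoRNA hosts outside the ribosome, 25 in number, had 16 lower and none higher (median -0.70). The 16 include Rcc1 (-1.53), described above as starting beside Snhg3 and sharing exonic bases with it, so this list is not separate from the 7 genes and their neighbours. Among them were Nop2, a methyltransferase of ribosomal RNA (51.6 to 17.1 CPM, -1.59), and Ppan, a factor of large subunit assembly (39.6 to 11.6 CPM, -1.77).

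Ribosomal protein genes and other TOP mRNAs had medians nearer 0. Of 78 ribosomal protein genes, 4 passed as lower and none as higher by edgeR (10 and none at an unadjusted p under 0.05). Among all rows tested, 17.5% were lower. The median log2 fold change of the 78 was -0.10. Every OFF library lay below every ON library for 25 of them, against 24.5% of all rows. The reverse held for none, against 23.8% of all rows. The smallest p-values were those of Rpl8 (-0.35, adjusted p 0.0147), Rpl18 (-0.34) and Rps2 (-0.28). The count of 4 became 0 on leaving out ON replicate 1, OFF replicate 2 (3 at an unadjusted p under 0.05 for each) or ON replicate 2 (5 unadjusted). It was 2 without ON replicate 3 (4 unadjusted), 7 without OFF replicate 1 (12 unadjusted) and 12 without OFF replicate 3 (26 unadjusted). Of 19 other TOP mRNAs of the translation machinery, 6 were lower and none higher (median -0.19), led by the elongation factor subunit Eef1g (280 to 142 CPM, -0.98) and the nucleolar protein Npm1 (1484 to 790 CPM, -0.91). That count was 3 without ON replicate 1 or OFF replicate 2, and 2 without ON replicate 2 or ON replicate 3. It was 7 without OFF replicate 1 and 8 without OFF replicate 3. At an unadjusted p under 0.05, 5 were lower without ON replicate 1 or ON replicate 3, and 6 without ON replicate 2 or OFF replicate 2. Without OFF replicate 1 these were 9, and without OFF replicate 3 they were 10.

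RNAs of the protein partners of snoRNAs were mostly lower too. The mRNAs of all 8 core proteins of box C/D and H/ACA snoRNPs were lower in OFF (median -1.05), as were 17.5% of all rows tested. Among them were Nop56 (285 to 111 CPM, -1.36), Gar1 (63.6 to 26.3 CPM, -1.27) and Snu13 (147 to 78.7 CPM, -0.90). Nop56 and Dkc1 are also counted among the protein-coding snoRNA hosts, and Eef1b2, Eef2, Tpt1, Rack1 and Naca among both those hosts and the TOP mRNAs. Of 14 factors of snoRNP assembly and transport, 11 were lower (median -0.88), with Nolc1 (154 to 63.3 CPM, -1.28), a nucleolar chaperone of snoRNPs, first by p. Pih1d1, a subunit of the R2TP chaperone complex, rose (12.3 to 18.0 CPM, 0.54, adjusted p 0.0258), a call lost by DESeq2 and without ON replicate 1, 2 or 3 or OFF replicate 3. Of 18 factors of nonsense-mediated decay, 10 were lower and none higher (median -0.37), led by Etf1, the release factor of translation (116 to 63.9 CPM, -0.86), and by Magohb (12.5 to 6.54 CPM, -0.93) and Eif4a3 (173 to 116 CPM, -0.57) of the exon junction complex. Apart from Pih1d1, no gene of these lists was higher by edgeR at an unadjusted p under 0.05, and none passed as higher by DESeq2.

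**Figure D5:**
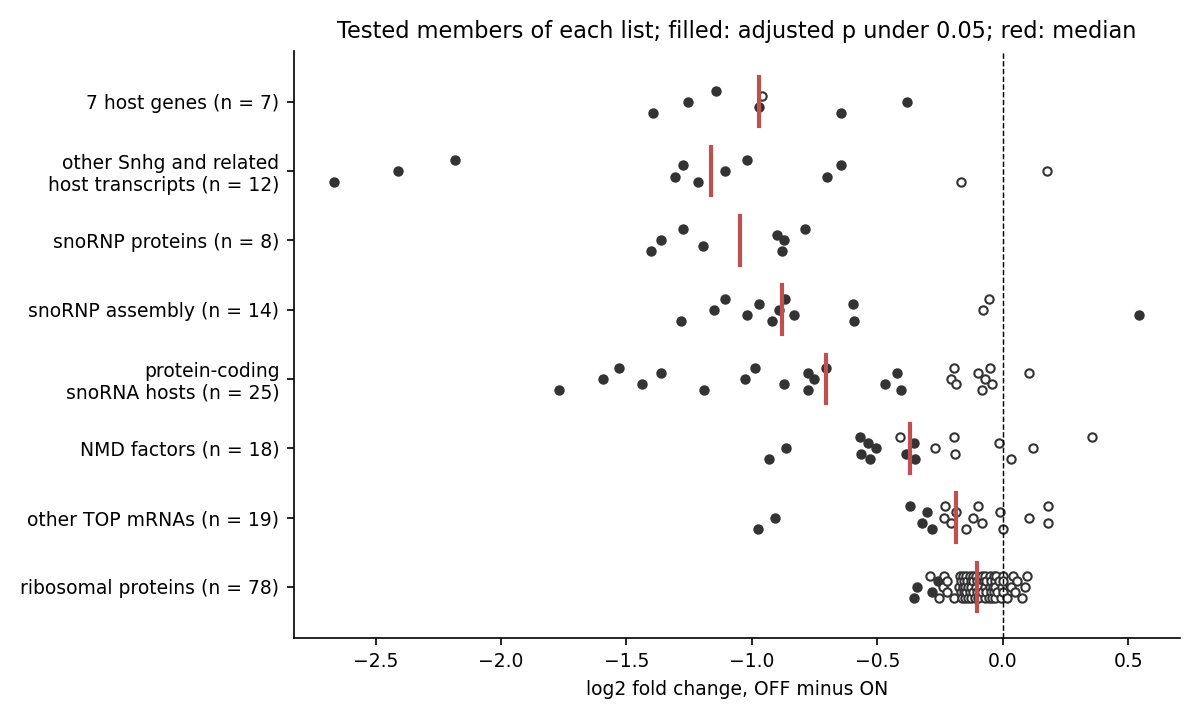
Log2 fold change (horizontal axis, OFF minus ON) of each tested gene in the 7 host genes and 7 lists of related genes; filled points have an adjusted p under 0.05 and red bars are medians. Medians run from -1.16 for other Snhg and related transcripts to -0.10 for ribosomal protein genes, with the 7 host genes at -0.97.

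The sorted cells were checked against markers. Of 13 myeloid and progenitor genes listed for the leukaemic cells, 12 were tested. Of these, 6 were higher in OFF and 1 lower, against 17.3% and 17.5% of all rows tested. The 13 summed to 2763 to 3170 CPM in ON and 4518 to 4767 CPM in OFF. As a list they do not tell leukaemic cells from myeloid cells of the host. Mpo, myeloperoxidase, rose from 301 to 803 CPM (1.41), Itgam from 60.9 to 137 CPM (1.17) and Elane from 840 to 1626 CPM (0.95), while Ctsg was lower (-0.39). An NSG host keeps its own red cell precursors, megakaryocytes and myeloid cells and lacks mature B, T and NK cells. Of 10 erythroid markers, 9 had a row and 5 were tested, all higher in OFF; the sum was 150 to 212 CPM in ON and 578 to 934 CPM in OFF, mostly globin RNA such as Hba-a2 (69.2 to 282 CPM). Epor was at 0 in all ON libraries.

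Of 9 B and plasma cell markers, 2 were tested and both were higher, with a sum of 3.30 to 6.51 CPM in ON and 10.4 to 14.96 CPM in OFF, mainly Ighm (log2 fold change 1.70). The 6 megakaryocyte markers summed to 32.3 to 37.1 CPM in ON and 54.9 to 63.8 CPM in OFF, nearly all Gp1bb (34.6 to 56.7 CPM), the 1 tested, which rose, while Ppbp was at 0 in all ON libraries. Markers of T and NK cells (1 of 9 tested) summed to at most 3.87 CPM in ON and 5.06 CPM in OFF, with Cd8a at 0 in all libraries. Those of stroma and endothelium (1 of 9 tested) summed to 6.82 to 10.5 CPM and 8.13 to 11.7 CPM, with Lepr and Tek at 0 in all libraries. Nkg7 and Pecam1, the genes tested in these lists, were not called. The part of these other cells in the lower level of the host genes was not tested.

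The rows most like the host genes were ranked by Pearson's r over 6 libraries with the summed log2 CPM of the 7 genes, among 5062 rows of at least 20 CPM. The first 5 were Bcl2a1a, an inhibitor of apoptosis (r = 0.997, 39.2 to 17.4 CPM), Xpot, the exporter of tRNA (92.7 to 54.2 CPM), Limd1, a LIM domain protein (42.7 to 23.2 CPM), Ripor2, an inhibitor of RhoA (34.1 to 11.2 CPM), and Slc1a5, a glutamine transporter (r = 0.993, 72.4 to 37.8 CPM). Of the rows compared, 251 (4.96%) had an r of at least 0.95. The 6 libraries fall into 2 groups, so such an r mostly describes the difference between ON and OFF and carries no test.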

How the data were processed

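The authors' deposited table gave raw counts per gene for 6 libraries (3 ON, 3 OFF; Lexogen QuantSeq 3' kit, per the labels). A second deposited table held normalised log2 values for 12287 genes, used only as an alternative. Per the submitters' processing notes, the tools were HISAT2 2.0.4, featureCounts of Subread 1.6.3, cutadapt 1.9.1, bcl2fastq 2.17.1.14, FastQC 0.11.6, limma 3.42.2 and R 3.6.1, with build mm10. The sources used here do not give the annotation, the strand setting or how multiply mapped reads were treated. The count table had 54838 rows; 1105 without a name, 0.145% to 0.172% of counts, were left out.

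Counts were tested in R 4.3.3 with edgeR 4.0.16 (filterByExpr with a minimum count of 10 and minimum total of 15, TMM, robust glmQLFit and glmQLFTest, no covariate, Benjamini-Hochberg over 13652 rows at 0.05). DESeq2 1.42.0 and limma 3.58.1 were alternatives. SE is the log2 fold change divided by the square root of F. The script was tested on simulated data. A count of 0 allows up to 3 counts, at most 0.36 CPM; counts are of reads without molecular identifiers, so this covers counting error only. Gene positions came from GENCODE M21 (GRCm38, the same assembly as mm10), and starts from RefSeq.

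Members and lists were chosen with earlier results of these data known. Named were all members; up to 3 called genes per list and direction with the smallest p and a mean of at least 5 CPM; genes overlapping a member or starting within 1000 bases of it, of which snoRNA rows are summarised; and the 5 rows most like the members. The TATA search and the reads shared by other Snhg rows were chosen after values were seen, as were the uncalled genes named.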

Additional observations from a re-analysis of the deposited data

How the results depend on the processing

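Gas5, Snhg1, Snhg3, Snhg5 and Snhg12 kept their direction and an adjusted p under 0.05 in all 16 alternatives run, with the highest adjusted p at 0.00351 for Gas5. Their log2 fold changes ranged from -0.68 to -0.56 for Gas5, from -1.37 to -1.18 for Snhg1, from -1.47 to -1.33 for Snhg3, from -1.05 to -0.83 for Snhg5 and from -1.26 to -0.98 for Snhg12. Snhg8 passed in 4 of 16 (adjusted p 0.00102 to 0.174) and Snhg6 in 5 of the 15 in which it was tested (adjusted p 3.88e-05 to 0.203), among them DESeq2 (0.0237) and without OFF replicate 3 (0.00865). None of the 7 host genes, nor Slc3a2, Rcc1, Gm17300, Mcmdc2 or Zbtb37 beside them, changed sign in an alternative that tested it. The count of host genes called lower was 5 to 7 in every alternative, and leaving out 1 library gave 5 to 7. Over all rows, 3293 to 5444 were called when 1 library was left out and 3802 by DESeq2. The labels do not say whether replicate numbers pair the mice. Deviations from the group mean had correlations of 0.0348, -0.0759 and -0.0504 between libraries of the same number. Between libraries of different numbers they ran from -0.037 to 0.087. With 3 mice a group, these values cannot show whether mice were paired. With the replicate number as a block, edgeR called 7 host genes lower, with adjusted p 0.00150 for Snhg6, and 4403 rows in all. Under the block, 2 ribosomal protein genes and 3 other TOP mRNAs were lower. With no scaling, upper quartile scaling, the ribosomal RNA rows left out or a minimum of 10 CPM in 3 libraries, 2 ribosomal protein genes were lower, and that minimum left 6 other Snhg transcripts and 1 snoRNA of the name list. That snoRNA list had 7 lower without a filter, 2 in the authors' normalised table and 8 without OFF replicate 1. Snhg6 had the fewest counts of the 7 genes, 24 to 113 a library; whether depth or the spread between mice limits its test was not tested. The causes of these shifts were not tested.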
